A study of Mus musculus with 24 samples.

Results

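The erythroid genes described here are Hbb-y, Hbb-bh1, Hba-x, Alas2, Klf1, Gata1, Slc4a1 and Epor, 8 of the 18193 genes named on the array and 14 of its probe sets. They were chosen by name as genes of red blood cells, and where a gene has several probe sets the one with the highest 24-array mean stands for it. RNA was taken from upper and lower jaws of E12.5 mouse embryos, on a background that the labels call C57B6. Knockout embryos came from crosses that combine the Wnt1-Cre transgene with floxed Tgfbr2, the gene of the type II TGF-beta receptor. The series text names a cleft palate and a skull defect for this knockout. Controls were littermates, and the sources used here do not state their own genotype. Mandible and maxilla were each split into a distal and a proximal end, which gave 8 groups of 3 arrays, numbered 1 to 3. Wnt1-Cre acts in the neural crest, from which blood cells do not derive. Nothing in the labels ties an array to an embryo of its own, so each p-value measures only the spread between these arrays.

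Red cells of the early embryo arise in the yolk sac, circulate with their nuclei and carry embryonic hemoglobin. A second, definitive lineage from the fetal liver then replaces them and carries adult hemoglobin. Hbb-y and Hbb-bh1 are embryonic beta-like globin genes of the beta-globin cluster, and Hba-x encodes the zeta chain, the embryonic alpha-like globin. Alas2 makes the erythroid enzyme of the first step of heme synthesis. Gata1 and Klf1 encode the transcription factors that drive red cell genes. Slc4a1 encodes band 3, the anion exchanger of the red cell membrane, and Epor encodes the erythropoietin receptor. In RNA from whole tissue, fewer red cells and less of a transcript per red cell cannot be told apart.

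The GATA factors bind GATA motifs, and Klf1 binds CACCC-type motifs, so the sequence before the start of the members is shown for 4 of them. Hba-x and Alas2 are members whose signal differed between array numbers in the results that follow, Hba-x in knockouts only. Hbb-y and Epor are members for which no such difference passed. The sequences are the 250 bases before the annotated start, from RefSeq on build GRCm38.p6, written 5′ to 3′ on the strand of the gene. Capitals mark the GATA motif, which is GATAA or GATAG with A or T before it, on either strand. The positions are chr11:32276350-32276599 on the plus strand for Hba-x, chrX:150547167-150547416 on the plus strand for Alas2, chr7:103853208-103853457 on the minus strand for Hbb-y and chr9:21963577-21963826 on the minus strand for Epor.
Hba-x: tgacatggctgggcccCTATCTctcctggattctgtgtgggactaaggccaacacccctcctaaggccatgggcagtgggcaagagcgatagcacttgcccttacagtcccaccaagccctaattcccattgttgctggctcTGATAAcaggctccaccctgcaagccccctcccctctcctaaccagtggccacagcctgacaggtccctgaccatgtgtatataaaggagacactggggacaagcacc
Alas2: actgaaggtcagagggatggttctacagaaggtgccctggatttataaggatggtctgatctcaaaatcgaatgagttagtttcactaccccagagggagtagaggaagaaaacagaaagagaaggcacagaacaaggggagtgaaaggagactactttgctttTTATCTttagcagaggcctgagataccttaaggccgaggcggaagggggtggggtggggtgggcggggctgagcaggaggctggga
Hbb-y: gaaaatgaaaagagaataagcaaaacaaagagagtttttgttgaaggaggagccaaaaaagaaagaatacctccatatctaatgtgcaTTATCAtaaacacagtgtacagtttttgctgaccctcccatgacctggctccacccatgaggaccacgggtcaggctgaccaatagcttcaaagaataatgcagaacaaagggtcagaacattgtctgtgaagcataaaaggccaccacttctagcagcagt
Epor: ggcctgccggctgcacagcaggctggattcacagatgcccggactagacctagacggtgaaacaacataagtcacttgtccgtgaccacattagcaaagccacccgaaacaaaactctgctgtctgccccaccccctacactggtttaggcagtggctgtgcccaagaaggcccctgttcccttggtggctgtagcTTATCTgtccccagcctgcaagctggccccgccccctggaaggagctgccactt
RefSeq sequence was matched for 6 of the 8 members, namely Hbb-y, Hba-x, Alas2, Klf1, Gata1 and Epor. A GATA motif was present in 5 of the 6, all but Gata1, and in 26.5% of 32536 promoters of the same length. The motif CCNCNCCC, searched on both strands with overlaps counted, was present in 4 of the 6, namely Hba-x, Alas2, Gata1 and Epor, and in 46.2% of the promoters. The letters CACCC alone do not make this match, and the sequences of Hbb-y and Klf1 hold CACCC without it. Hba-x held 2 GATA matches, the nearer at 108 to 103 bases before the start. Alas2 held 1 at 86 to 81 bases, Epor 1 at 54 to 49 bases and Hbb-y 1 at 162 to 157 bases. These matches are of letters only, and each of the 4 members shown holds a GATA match.

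The arrays were comparable in scale, with medians from 7.26 to 7.38 on the log2 scale, and 14879 genes passed the filter on low signal, all 8 members among them. Tgfbr2 was at 11.78 ± 0.29 in controls and 12.11 ± 0.40 in knockouts (SD, n = 12), and the sources used here do not say whether its probe set lies in the deleted part, so it checks no label. The Y-linked gene Eif2s3y read 10.22 to 10.41 on the 4 control arrays with number 2 and at most 3.88 on the other 20 arrays. Xist, a gene of female cells, read 6.19 to 6.74 on those 4 and at least 13.58 on the other 20. By these genes those 4 control arrays read as male and the rest, with all knockouts, as female. Alas2 and Gata1 lie on the X chromosome, and the part of sex in the members' values was not tested. The mandible marker Hand2 lay at 10.81 to 13.59 in mandible and 4.87 to 8.28 in maxilla, and the facial mesenchyme marker Prrx1 was high in both genotypes, at 13.06 ± 0.49 and 13.14 ± 0.34 (SD, n = 12). In 7 arrays the profile was closer to the opposite end of its jaw than to its own group, among them both ends of control maxilla 1 and of knockout mandible 1. Results are therefore also given without those 4 arrays.

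The signal differed between array numbers for 4 of 8 members in controls and 5 of 8 in knockouts, beside 0.867% and 10.7% of all genes. None of the 8 passed the test for a difference between knockout and control. Each genotype and number is present on 4 arrays, 1 for each jaw end, and these are called control 1 to 3 and knockout 1 to 3. The mean of the 4 control 3 arrays was the highest of the 6 means for 8 of 8 members, and the mean of the 4 knockout 1 arrays was the lowest for 8 of 8. The share of all genes with such an order was not counted. Single arrays of Epor followed it less, with control 3 the highest in 1 of 4 regions and knockout 1 the lowest in 2. Between knockout 1 and the other knockouts Hbb-bh1 differed by -1.68 on the log2 scale, 3.21-fold lower, and Slc4a1 by -1.28, 2.43-fold lower. Hbb-y and Epor differed there by -0.06 and -0.05, the smallest of the 8.

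Among the globins, Hbb-bh1 had the widest spread. In the order mandible distal, mandible proximal, maxilla distal, maxilla proximal it read 13.51, 12.85, 13.41 and 13.33 in control 1, and 13.32, 13.05, 13.60 and 13.34 in control 2. Control 3 read 14.17, 13.79, 13.85 and 13.78. Knockout 1 read 11.53, 11.72, 11.78 and 11.74, knockout 2 read 13.39, 13.20, 13.70 and 13.59, and knockout 3 read 13.40, 13.25, 13.26 and 13.21. The 4 knockout 1 arrays thus lay below all other 20 arrays and the 4 control 3 arrays above them, while the other 4 sets of arrays overlapped. In limma, a test of array number within each genotype gave an adjusted p of 3.76e-07 in knockouts and 0.0145 in controls for Hbb-bh1. The difference of knockout 1 from the other knockouts was of similar size in each region, between -1.87 and -1.50. The gene is covered by 3 probe sets whose correlations over the 24 arrays were 0.975 to 0.999.

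Hba-x read 13.32, 13.44, 13.33 and 13.44 in knockout 1, in the same order of regions. Knockout 2 read 13.91, 13.87, 13.98 and 14.01, and knockout 3 read 13.87, 13.83, 13.64 and 13.76. Its controls ranged from 13.75 to 14.08, with means of 13.83, 13.85 and 14.03 in control 1, 2 and 3. Knockout 1 lay below all other arrays again, with a difference of -0.48 from the other knockouts, 1.39-fold lower (limma adjusted p = 6.29e-05 for array number in knockouts). In controls the means differed by at most 0.20 and the test did not pass (limma adjusted p = 0.180).

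Hbb-y ranged only from 14.22 to 14.48 over the 24 arrays, and the means of the 6 sets ran from 14.29 to 14.44. Array number did not pass for it in controls or knockouts (limma adjusted p = 0.230 and 0.407). Its probe set lay within 0.17 to 0.42 of the highest value on each array, so little range remained above it, and the part of this in the narrow spread was not tested. Its 2 other probe sets correlated with it at 0.961 and 0.657 over the 24 arrays.

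The adult globins could be read only in part, because the probe sets that carry their symbols singly were Hba-a2, with 6.86 to 8.05, Hbb-b2, with 6.16 to 6.84, and Hba-a1, which did not pass the filter. A further 4 probe sets, looked at after the values of the members had been seen, are annotated to several adult globin genes at once. The 1 annotated to adult beta-globin genes ranged from 13.28 to 13.98, and its mean was 13.84 in knockout 1, 13.83 in knockout 2 and 13.78 in knockout 3. The 3 annotated to adult alpha-globin genes differed by -0.09, -0.01 and -0.01 between knockout 1 and the other knockouts. Of the embryonic genes, Hbb-bh1 and Hba-x differed by -1.68 and -0.48 in knockout 1, and Hbb-y by -0.06, within the range of -0.09 to 0.04 of the 4 adult probe sets. These differences between probe sets were not tested. On every array 2 of the alpha-globin probe sets lay at 14.26 or more, and Hbb-y at 14.2 or more.

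**Figure D1:**
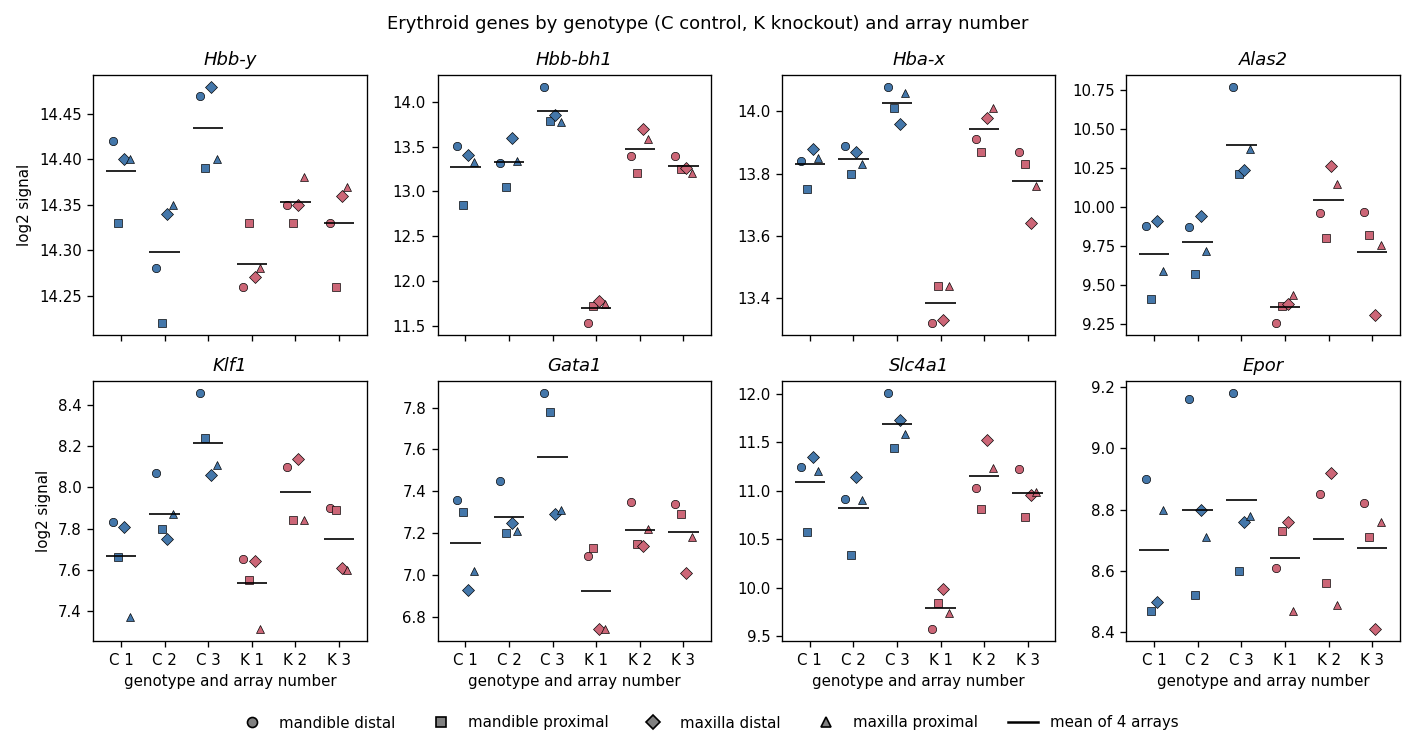
Log2 signal of the 8 erythroid genes (1 panel each, with its own axis) on all 24 arrays by genotype and array number; symbols give the jaw end, blue is control, red is knockout, and the black line is the mean of 4 arrays. Knockout 1 is lowest and control 3 highest by their means in all 8 panels, and for Hbb-bh1, Hba-x and Slc4a1 the 4 knockout 1 arrays lie below all other 20.

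**Figure D2:**
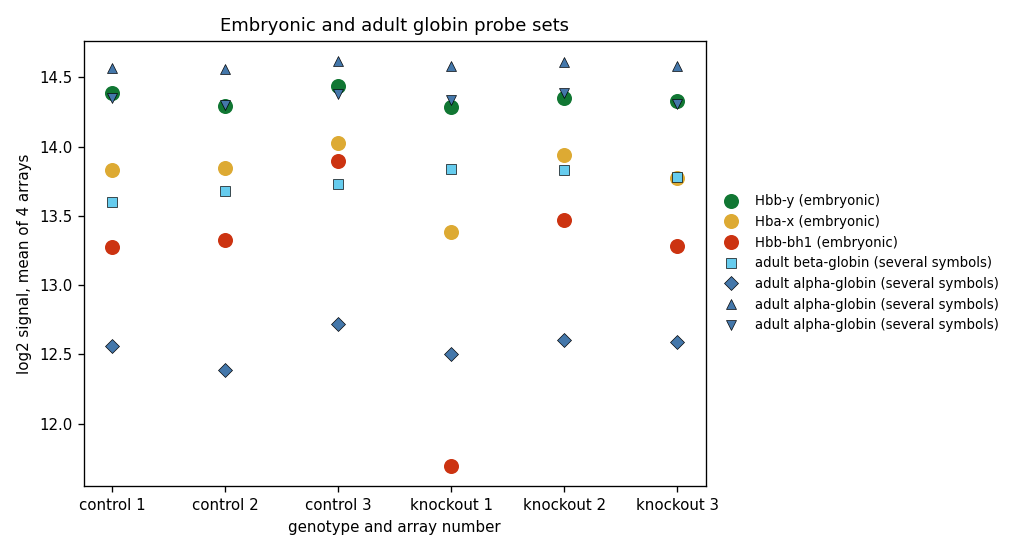
Mean log2 signal of 4 arrays (vertical axis) by genotype and array number for the 3 embryonic globin genes (circles) and the 4 probe sets annotated to several adult globin genes (other symbols). Hbb-bh1 falls from 13.47 and 13.28 in knockout 2 and 3 to 11.69 in knockout 1, while Hbb-y lies at 14.29 there and the adult beta-globin probe set at 13.84; heights of different probe sets are not comparable with each other.

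Slc4a1, the membrane member, followed the same order as Hbb-bh1 at both ends of the scale. It read 11.25, 10.57, 11.35 and 11.20 in control 1, 10.92, 10.34, 11.14 and 10.90 in control 2, and 12.01, 11.44, 11.73 and 11.59 in control 3. Knockout 1 read 9.57, 9.84, 9.99 and 9.74. Knockout 2 read 11.03, 10.81, 11.52 and 11.24, and knockout 3 read 11.22, 10.73, 10.96 and 10.99. The highest knockout 1 array was below the lowest of the other 20, whereas control 3 overlapped with the other sets. Array number passed in both genotypes (limma adjusted p = 3.45e-05 in knockouts and 0.00612 in controls). A second probe set of Slc4a1 correlated with it at 0.983 over the 24 arrays, and the third, with a mean of 4.97, did not pass the filter.

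Alas2, the heme enzyme, was high in control 3. Its arrays read 10.77, 10.21, 10.24 and 10.37 in control 3, against 9.41 to 9.94 in the other controls. Knockout 2 reached 10.26 in maxilla distal, so control 3 did not lie above all other arrays. Knockout 1 read 9.26, 9.37, 9.38 and 9.44, and knockout 3 reached down to 9.31 in maxilla distal, so the knockouts overlapped. The means of control 3 and the other controls differed by 0.66, a 1.58-fold difference, and those of knockout 1 and the other knockouts by -0.52. Array number passed in both genotypes (limma adjusted p = 0.0329 in controls and 0.0142 in knockouts).

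Of the transcription factors, Klf1 passed for array number in both genotypes and Gata1 in neither. Klf1 had means of 7.67, 7.87 and 8.22 in control 1, 2 and 3 and of 7.53, 7.98 and 7.75 in knockout 1, 2 and 3 (limma adjusted p = 0.0172 and 0.0162). Gata1 had means of 7.15, 7.28 and 7.56 in controls and of 6.93, 7.21 and 7.21 in knockouts (limma adjusted p = 0.0685 and 0.0507). In each of the 4 regions the knockout 1 array was the lowest of the 6 for Gata1 and the control 3 array the highest. Epor, the receptor, had means between 8.64 and 8.83 and passed in neither genotype (limma adjusted p = 0.778 and 0.906).

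In all, array number passed for 4 of 8 members in controls, where 0.867% of all genes tested passed, and for 5 of 8 in knockouts, where 10.7% passed. All 4 knockout 1 arrays lay below the other 20 for 3 members, Hbb-bh1, Hba-x and Slc4a1, as for 0.975% of all genes. All 4 control 3 arrays lay above the other 20 for 1 member, Hbb-bh1, as for 0.141% of all genes. None of the other 4 sets of arrays stood apart in this way for any member. These calls depended most on knockout 1 and control 3. They also fell without other sets, in controls to 1 without control 1, 3 without control 2 and 2 without knockout 1. In knockouts they fell to 3 without knockout 2. Without the 4 knockout 1 arrays 0 members passed in knockouts, with 3 at an unadjusted p under 0.05, and without the 4 control 3 arrays 0 passed in controls, with 2 at an unadjusted p under 0.05. Leaving out the single array control mandible distal 3 or control mandible proximal 3 also left 0 members passing in controls, with 7 at an unadjusted p under 0.05 and limma adjusted p-values of 0.0537 and 0.0548 for Slc4a1. In controls 2 members passed without control mandible distal 1, control mandible proximal 1 or control maxilla proximal 3. In knockouts 3 to 6 members passed when any 1 array was left out, with 3 without knockout mandible distal 1.

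Between knockouts and controls, all 8 members had a lower mean over the 4 regions in knockouts, and 0 of 8 passed in limma, where 0.47% of all genes passed. An unadjusted p under 0.05 was reached by 4 of the 8, namely Hbb-bh1, Hba-x, Gata1 and Slc4a1, and by 23.2% of all genes. The median change of the members was -0.21 on the log2 scale, beside 0.01 over all genes, of which 46.3% had a negative change. Hbb-bh1 was at 13.50 ± 0.36 in controls and 12.81 ± 0.84 in knockouts (SD, n = 12), a change of -0.68 (SE 0.29, 95% interval -1.28 to -0.09, limma adjusted p = 0.165). Slc4a1 was at 11.21 ± 0.48 and 10.64 ± 0.67, a change of -0.57 (SE 0.24, limma adjusted p = 0.175). Hba-x changed by -0.20 (SE 0.09, limma adjusted p = 0.180) and Gata1 by -0.22 (SE 0.08, limma adjusted p = 0.144). For Alas2, Klf1, Epor and Hbb-y the changes were -0.25, -0.16, -0.09 and -0.05, with limma adjusted p-values from 0.317 to 0.363. The control and knockout arrays overlapped for every member.

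The size of these changes depended on knockout 1 and control 3. Without the knockout 1 arrays the change of Hbb-bh1 was -0.12 (limma adjusted p = 0.765) and that of Slc4a1 -0.14 (limma adjusted p = 0.781), and without the control 3 arrays they were -0.49 and -0.32. The median over the 8 members was -0.08 without knockout 1 and also without control 3, and -0.30 without control 1 or knockout 2. Without the 4 arrays whose ends are in doubt, the change was -0.45 for Hbb-bh1 and -0.37 for Slc4a1, and the median was -0.19. All changes stayed below 0 with each of the 6 sets left out in turn. With 1 mean for each set, and so 3 against 3, an exact two-sided permutation test gave p-values from 0.3 to 0.5 for the 8 members, and the smallest it allows is 0.1.

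**Figure D3:**
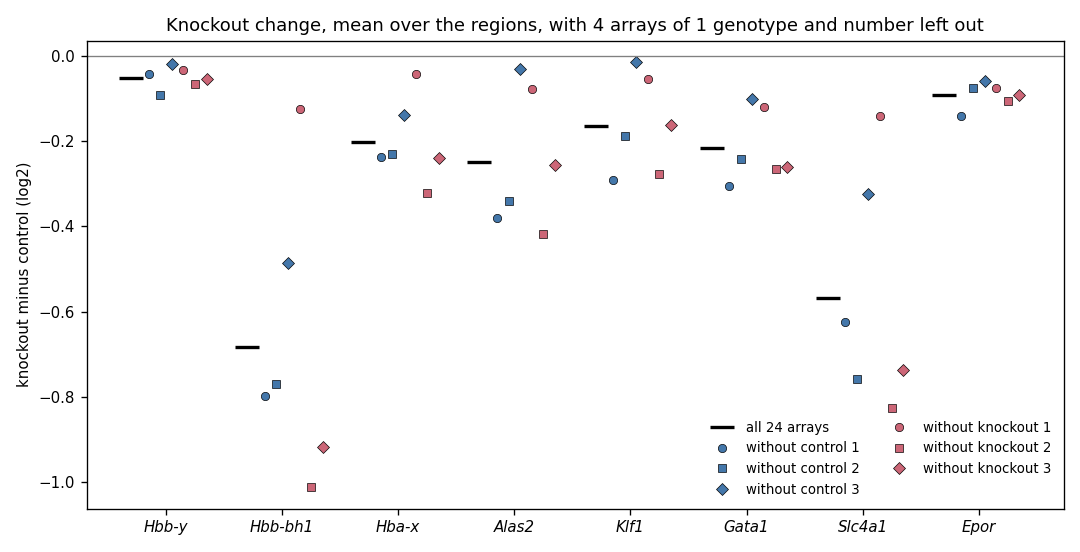
Knockout minus control change of each erythroid gene (log2, mean over the 4 regions) with all 24 arrays (bars) and with the 4 arrays of 1 genotype and number left out (blue symbols for a control set, red for a knockout set). For Hbb-bh1 the change goes from -0.68 to -0.12 without knockout 1 and to -1.01 without knockout 2, and every value lies below 0.

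In the single regions the members' changes were mostly negative and none passed in limma. In mandible distal 8 of 8 were negative with a median of -0.31, and 0.134% of all genes passed. In mandible proximal 7 of 8 were negative with a median of -0.14, and 0.0538% passed. In maxilla distal 7 of 8 were negative with a median of -0.22, and 0.0202% passed. In maxilla proximal 8 of 8 were negative with a median of -0.18, and 5.77% passed. The exceptions with a positive change were both Epor, with 0.14 in mandible proximal and 0.01 in maxilla distal. Epor was also the 1 member with an unadjusted p under 0.05 in a region, mandible distal, where 12.6% of all genes had one. There Epor read 8.90, 9.16 and 9.18 in controls and 8.61, 8.85 and 8.82 in knockouts (change -0.32, SE 0.12, limma adjusted p = 0.263). A difference of the knockout change between the jaws passed in limma for 0 of 8 members, as against 0.0336% of all genes, and a difference between the ends for 0 of 8, as against 0.00672%. In both, 0 of 8 had an unadjusted p under 0.05, beside 6.62% of all genes for the jaws and 4.29% for the ends. For Hbb-bh1 the 95% interval of the difference between jaws ran from -1.23 to 1.17, so differences of that size could not be seen with these arrays.

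**Figure D4:**
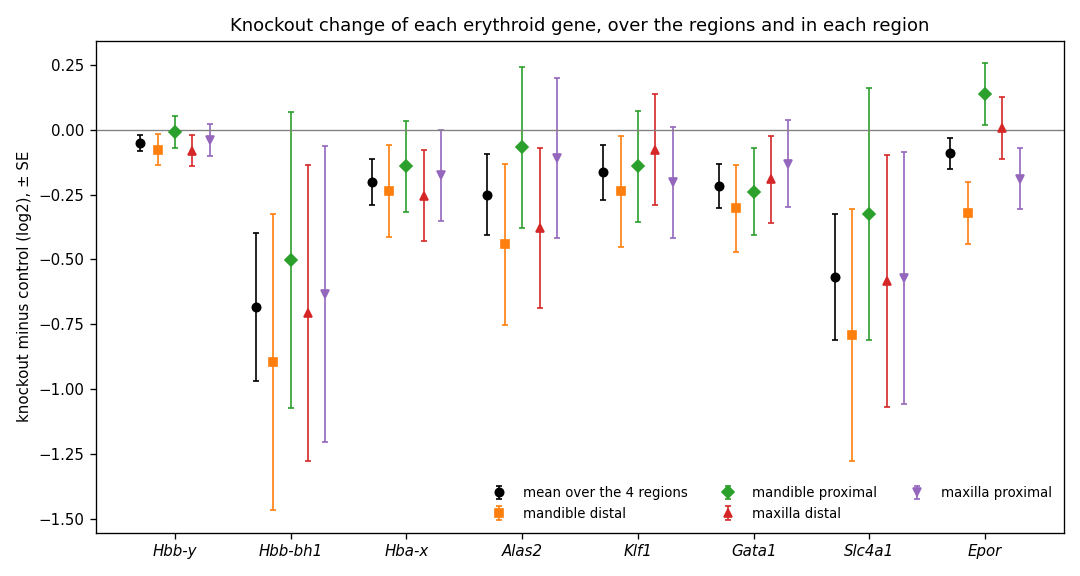
Knockout minus control change (log2) with its standard error for each erythroid gene, as the mean over the 4 regions (black, 12 against 12 arrays) and in each region (colours, 3 against 3 arrays). The mean over the regions lies below 0 for all 8 genes, from -0.05 for Hbb-y to -0.68 for Hbb-bh1, and no value passed after adjustment over all genes.

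The members were also compared between the jaws and between their ends. Between mandible and maxilla 1 of 8 passed, Gata1, where 46.6% of all genes passed. Gata1 ranged from 7.09 to 7.87 in mandible, with a median of 7.32, and from 6.74 to 7.31 in maxilla, with a median of 7.16 (n = 12 each). The jaws overlapped, and the mandible was higher by 0.27 (SE 0.08, limma adjusted p = 0.0134). Of the 8, 5 had a negative change, with a median of -0.01, and the 7 that did not pass had changes between -0.22 for Slc4a1 and 0.16 for Klf1. Between distal and proximal ends 0 of 8 passed, where 3.86% of all genes passed. An unadjusted p under 0.05 was reached by 1 of 8 and by 26% of all genes. All members but Hba-x were higher distally, with a median of 0.15, beside -0.01 over all genes, of which 55.4% were lower distally. The nearest was Epor, higher distally by 0.17 (SE 0.06, limma adjusted p = 0.0878), with 8.41 to 9.18 and a median of 8.81 distally, and 8.47 to 8.80 and a median of 8.66 proximally (n = 12 each). Epor passed without the 4 arrays whose ends are in doubt (limma adjusted p = 0.0282). It also passed without knockout maxilla proximal 3 (0.0299), control maxilla distal 1 (0.0473), knockout maxilla distal 3 (0.0487) or knockout mandible distal 1 (0.0498) alone, by the same test.

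The members moved together over the arrays to different degrees. A score of the members, their mean deviation from their means over the 24 arrays, was -0.53 in knockout 1, 0.40 in control 3 and between -0.02 and 0.13 in the other 4 sets. Its correlation with single members over the 24 arrays was 0.96 for Slc4a1, 0.95 for Hbb-bh1, 0.94 for Hba-x, 0.93 for Alas2, 0.84 for Klf1, 0.76 for Gata1, 0.68 for Hbb-y and 0.53 for Epor. The members are part of this score, and arrays of 1 set may share an embryo, so these values describe the 24 arrays only. Hbb-bh1 and Slc4a1 correlated at 0.961, and still at 0.86 over the 16 arrays without knockout 1 and control 3. Hbb-bh1 and Gata1 correlated at 0.641 over all arrays and at -0.03 over those 16. Alas2 and Klf1 correlated at 0.848 and 0.67.

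Of 14871 other genes, the 10 whose signal was most like the score over the 24 arrays were Rhag, Ermap, Grap2, Slc25a37, Epb42, Car2, Kel, Cldn13, Cited4 and Hemgn, with correlations from 0.961 for Rhag to 0.933 for Hemgn. Of the 10, 7 stand in the lists of further red cell, heme and iron genes drawn up for this comparison, which hold 85 of the genes tested, and the exceptions are Grap2, Cldn13 and Cited4. Rhag encodes a Rh-associated membrane protein, Epb42 a protein that binds band 3, Slc25a37 the mitochondrial iron importer mitoferrin, Car2 a carbonic anhydrase and Kel the Kell blood group protein. The lowest correlations were -0.860 for Matn4, -0.854 for Heca, -0.830 for Cdh13, -0.826 for Acan and -0.819 for Mef2d, of which Matn4 and Acan encode cartilage matrix proteins. For Klf1 alone the gene most like it was Nfe2, a further erythroid factor, at 0.929, for Hbb-y Sh3bgrl at 0.903, for Epor Dpep1 at 0.887 and for Gata1 1300017J02Rik at 0.882.

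The further 85 genes of the red cell, heme and iron lists did not move as 1 block. Between knockout and control 0 of 85 passed in limma and 14 had an unadjusted p under 0.05, beside 23.2% of all genes. Of the 85, 57 had a negative change, and their median was -0.04. Array number passed for 8 of 85 in controls and 19 of 85 in knockouts, beside 0.867% and 10.7% of all genes. Of 16 membrane and cytoskeleton genes 4 passed in controls and 7 in knockouts, Rhag, Epb42, Ermap and Icam4 in both. Rhag differed by -2.11 between knockout 1 and the other knockouts (limma adjusted p = 2.48e-06), with means of 5.15, 7.53 and 6.98 in knockout 1, 2 and 3. Of 9 maturation and metabolism genes 1 passed in controls and 3 in knockouts. Hemgn, a nuclear protein of red cell precursors, differed by -1.91 between knockout 1 and the other knockouts and by 1.62 between control 3 and the other controls (limma adjusted p = 0.000238 and 0.00191). Of 19 erythroid transcription factor and cofactor genes 2 passed in controls, Nfe2 and Trim10, and 6 in knockouts. Of the 6, all but Runx1 were lower in knockout 1 than in the other knockouts. Runx1 had means of 9.319, 8.595 and 9.307 in knockout 1, 2 and 3, so for it knockout 2 stood apart.

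The heme, iron and signalling lists held 3 genes that passed for array number in knockouts and 1 in controls. Of 14 heme synthesis and transport genes, beside Alas2, 1 passed in controls, Urod, and 1 in knockouts, Ppox, and their median difference of knockout 1 from the other knockouts was -0.08, beside -0.40 for the 8 members. Of 14 iron genes 1 passed in knockouts, Slc25a37, with -0.79 and a limma adjusted p of 0.000355, and none in controls, while the transferrin receptor gene Tfrc had -0.26 (limma adjusted p = 0.243). Of 11 genes of erythropoietin and Kit signalling 1 passed in knockouts, Pim1, and none in controls. Many heme, iron and signalling genes are used by all cells, so the jaw tissue contributes to their signal as well.

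The marker lists of other cells held 1 gene that passed between knockout and control, the neuron marker Nefl. Over all genes 0.47% passed and 23.2% had an unadjusted p under 0.05. Of 8 platelet and megakaryocyte markers all 8 had a negative knockout change, with a median of -0.17, none passing in limma and 1 at an unadjusted p under 0.05, and the log2 of their summed signal ranged from 11.79 to 12.87 in controls and from 11.53 to 12.59 in knockouts. Of 12 macrophage markers all 12 had a positive change, with a median of 0.32, none passing and 7 at an unadjusted p under 0.05, and their summed signal ranged from 11.44 to 12.52 in controls and from 12.00 to 13.17 in knockouts. Of 11 endothelium markers 9 had a positive change, none passed and 0 had an unadjusted p under 0.05, with ranges of 12.99 to 13.75 and 13.05 to 13.71. Of 6 skeletal muscle markers all 6 had a positive change, with a median of 1.77, none passing and 6 at an unadjusted p under 0.05, and ranges of 9.34 to 14.96 and 9.43 to 15.28. Of 6 epithelium markers 3 had a positive change, none passed and 0 had an unadjusted p under 0.05, with ranges of 11.51 to 14.21 and 11.56 to 14.49. Of 6 neuron markers 2 had a positive change, and Nefl, a neurofilament gene, rose by 1.67 (SE 0.33, limma adjusted p = 0.0347), with ranges of 12.08 to 13.81 and 12.14 to 15.57. Of 6 facial mesenchyme markers 3 had a negative change, none passed and 2 had an unadjusted p under 0.05. In knockout 1 the median difference from the other knockouts was -0.44 for epithelium, -0.22 for platelet, -0.04 for facial mesenchyme, 0.14 for endothelium, 0.24 for neuron, 0.30 for macrophage and 1.22 for muscle markers. The 6 epithelium markers had mean levels of 10.31, 10.21 and 11.05 in knockout 1, 2 and 3, so knockout 3 stood apart. Array number passed in knockouts for the epithelium markers Krt8 and Krt18 (limma adjusted p = 0.0218 and 0.00288). Krt8 had means of 9.703, 9.955 and 11.33 in knockout 1, 2 and 3, and Krt18 of 9.4, 9.629 and 10.881. The platelet marker Gp9 also passed (limma adjusted p = 0.0467), with means of 7.998, 8.108 and 8.4. For each of these markers the mean of knockout 3 lay furthest from the others. Col1a1, a facial mesenchyme marker, passed as well, with a difference of 0.59 of knockout 1 from the other knockouts (limma adjusted p = 0.0209). Of all genes 10.7% passed for array number in knockouts. The lowest value of any probe set on any array was 2.97, so a signal above 0 does not show that a cell type was present. The part of these shifts in the members' values was not tested.

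**Figure D5:**
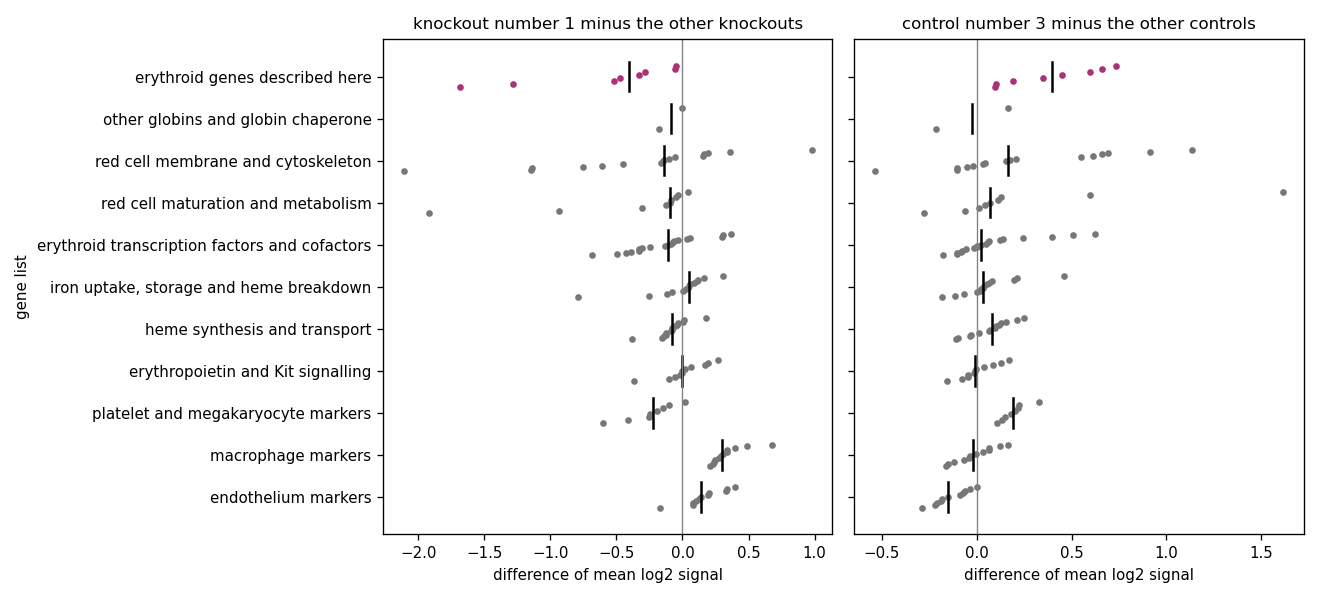
Difference of the mean log2 signal (horizontal axis) of knockout 1 from the other knockouts (left) and of control 3 from the other controls (right) for each gene of 11 lists; points are genes, black lines are list medians, and the erythroid genes described here are in purple. The 8 members have medians of -0.40 and 0.40, while the 14 heme synthesis and transport genes have medians of -0.08 and 0.08.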

How the data were processed

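Biotin-labelled cRNA was hybridised to 24 single-colour arrays with 45101 probe sets. The deposited log2 values were made by the authors with RMA, per the submitters' processing notes; the sources used here give no version of it. RMA makes the distributions of the arrays alike, so values are relative within an array. Names came from the platform annotation. Probe sets were dropped if they carried several symbols (932), no symbol (9160) or were controls (64). The probe set with the highest mean stood for each of 18193 genes, and the 14879 above the 30th percentile of their array in at least 3 arrays were tested.

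Limma 3.58.1 in R 4.3.3 fitted 8 group means (16 residual degrees of freedom), and array number within each genotype in a second fit (12 residual degrees of freedom). Within a comparison p-values were adjusted by Benjamini-Hochberg over all genes tested, and a gene was called at an adjusted p under 0.05. To check whether numbers pair arrays, deviations from group means were correlated. The median correlation was 0.15 between arrays that share genotype and number and 0.05 between genotypes at the same region and number, which settles no pairing. The fit was tested on simulated data. The members, lists and tests were chosen with earlier results of these data known. Named genes were all members, list genes with the largest knockout changes or that passed, and the genes with the highest and lowest correlation with the members; others were chosen after their values were seen. Alternatives, of which 4 were chosen after seeing the data, are given with their effects in the closing section.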

Additional observations from a re-analysis of the deposited data

How the results depend on the processing

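Each result was recomputed under up to 42 alternatives, 24 of which leave out 1 array. With all of them the 8 knockout changes over the regions stayed negative and their median lay between -0.30 and -0.05. None of the 8 passed, except with the array number as a replicate block, where 2 did, Hbb-bh1 and Gata1 (limma adjusted p = 0.0387 and 0.0303, over all their alternatives 0.0387 to 0.765 and 0.0303 to 0.616); the numbers are not shown to pair arrays. With a random block of genotype and number 0 passed. The count of all genes called was 70, and between 0 and 3013 over the alternatives. Gata1 passed between the jaws in all. Between ends 1 member, Epor, passed with array weights, without knockout 3 and without the 4 arrays with doubted ends, and 0 to 1 with 1 array left out. For array number in controls 4 members passed, but 2 with only the arrays compared, 1 without control 1, 0 without control 3, 2 without knockout 1, 1 without the arrays with doubted ends, and 0 to 5 with 1 array left out. In knockouts 5 passed, but 3 with only the arrays compared, 0 without knockout 1, 3 without knockout 2, 3 without the arrays with doubted ends, and 3 to 6 with 1 array left out. The cause was not tested, beyond fewer arrays being fitted. The number of arrays limits the precision, and the 3 numbers of a genotype are few.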
